A study of Mus musculus with 9 samples.

Results

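Ribosome biogenesis and nucleolar genes encode the proteins that transcribe, cut, modify and package ribosomal RNA in the nucleolus. A list of 42 such genes was followed by gene name through 1 expression table of 24044 named rows, and 41 of them had a row of their own. Ubtf, a factor that opens ribosomal DNA for RNA polymerase I, stood only on a row joined with its neighbour Atxn7l3, and is given apart. All 41 reached an FPKM of 1 in 3 or more libraries, the filter that 12711 named rows passed.

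RNA was sequenced from mouse embryonic stem cells of 3 lines (E14, v6.5 and also Oct4 GiP) at passages 20-23, each grown on gelatin for 2 weeks in 3 conditions. Serum and 2i are culture conditions whose composition the labels do not give, and Paused cells were kept for those 2 weeks with 200 nM of INK128, which blocks the mTor kinase. Each line gave 1 library per condition, so that every group has 3 libraries, 1 per line, and no line was repeated within a condition. Oct4 GiP is named for a reporter of the pluripotency gene Oct4, the labels give no allele or deletion for any group, and all libraries received ERCC control RNA. Per the labels, RNA was taken from 1 fixed number of cells for every library, and 1 fixed mass of RNA entered a directional library kit.

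A ribosome is built from ribosomal RNA that RNA polymerase I makes as 1 long precursor, which is folded, cut and chemically modified while proteins assemble on it. Small nucleolar ribonucleoproteins of the box C/D and box H/ACA kinds guide the modifications, and large assemblies of factors process the small and the large subunit separately before export. The mTor kinase is known to promote ribosome production in growing cells, and Myc proteins are known to activate many genes of this machinery.

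FPKM is the number of fragments scaled to transcript length and to the mapped fragments of a library. The table also holds a column of normalized expression for each library, which equals FPKM times 1 constant per library, from 1.81 to 1.99 in Paused, 2.45 to 3.17 in 2i and 3.40 to 3.74 in Serum. Depth in reads is unknown. The 7 embryonic stem cell markers were present throughout, with a summed FPKM of 3662 to 6083, whereas 6 endoderm markers summed to 2.37 to 4.83. In Serum, the v6.5 library had lower Nanog (42.8 FPKM) and Zfp42 (99.8 FPKM) than the libraries of E14 (239 and 599 FPKM) and Oct4 GiP (185 and 722 FPKM), both being pluripotency markers. Esrrb was also lower there (25.2 FPKM, against 156 and 144), while Utf1 was highest there (719 FPKM, against 543 and 508). Fold changes are log2 differences of FPKM + 1 with their standard errors, and a gene is called at a limma-trend adjusted p under 0.05, Benjamini-Hochberg over the 12711 rows. The 3 libraries of a condition are 3 lines, so p-values measure how far condition differences vary between these lines. Values of a gene are always given in the order E14, v6.5 and Oct4 GiP.

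In 2i, nearly the whole list was lower than in Serum. The limma-trend fit called 39 of 41 members lower and 0 higher, where 18.9% of all tested genes were called lower and 21.7% higher. At an unadjusted p under 0.05 the numbers were 41 lower and 0 higher. The share of all tested genes at that threshold was not counted, here or below, and the shares given are for adjusted p. The median log2 fold change of the members was -0.54, against 0.017 for all tested genes. All 41 members were lower in each of the 3 lines, which held for 30% of all genes, and in 39 of 41 the 2i and Serum libraries did not overlap with 2i lower, which held for 22.4%. No member had all 2i libraries above all Serum libraries, a pattern of 25.6% of all genes. Mean FPKM in 2i ranged from 48.3% of Serum for Ddx21 to 83.9% for Nop2, with a median of 67.6%.

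In Paused cells, most of the list stood nearer to Serum than in 2i when measured in FPKM, and mostly below it. The fit called 9 of 41 members lower and 0 higher, where 10.5% of all tested genes were called lower and 7.64% higher. At an unadjusted p under 0.05 it gave 14 lower and 0 higher, with no share of all tested genes counted at that threshold. The 9 were Nop10, Nop16, Nhp2, Mrto4, Bop1, Rrp9, Nop2, Wdr12 and Imp4. Mean FPKM in Paused ran from 54.5% of Serum for Nop10 to 114% for Rrn3, with a median of 91.5%, and 22 members were within 10% of Serum. In all 3 lines 24 members were lower than in Serum, against 32.4% of all genes, and 5 were higher, against 29.6%. In 17 of 41 all Paused libraries lay below all Serum libraries, against 21.3% of all genes. In 1 member all lay above, against 17.3%. The count of 9 rests on each Serum and Paused library: it was 0 without the Paused library of any 1 line or without the Serum library of Oct4 GiP, when all genes gave only 12 to 38 calls, and 3 without the Serum library of E14 or of v6.5. Leaving out a 2i library in place of these gave 14 for E14, 8 for v6.5 and 6 for Oct4 GiP. All tested genes then gave 1854, 1279 and 882 lower calls, and 422 and 503 without the Serum library of E14 or of v6.5.

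Set against 2i, Paused cells had more of these transcripts when measured in FPKM, though not on the authors' normalized expression. The fit called 27 of 41 members higher and 0 lower, where 19.8% of all tested genes were called higher and 24.6% lower, with 0 lower also at an unadjusted p under 0.05, but on the latter scale the same fit called 0 higher and 7 lower, where 6.21% of all tested genes were called higher and 54.5% lower. Paused and 2i libraries did not overlap in 32 members, all higher in Paused, which held for 23.6% of all genes. These 3 comparisons share libraries, so that a low value in 2i enters both the first and the third. Of the members, 24 were called lower in 2i than in Serum and higher in Paused than in 2i with no call between Paused and Serum. A further 6, namely Nop10, Rrp9, Bop1, Nop2, Nop16 and Mrto4, were called lower in both conditions than in Serum with no call between Paused and 2i. The share of all tested genes with either pattern was not counted, so these counts do not show whether a pattern is particular to the list.

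**Figure D1:**
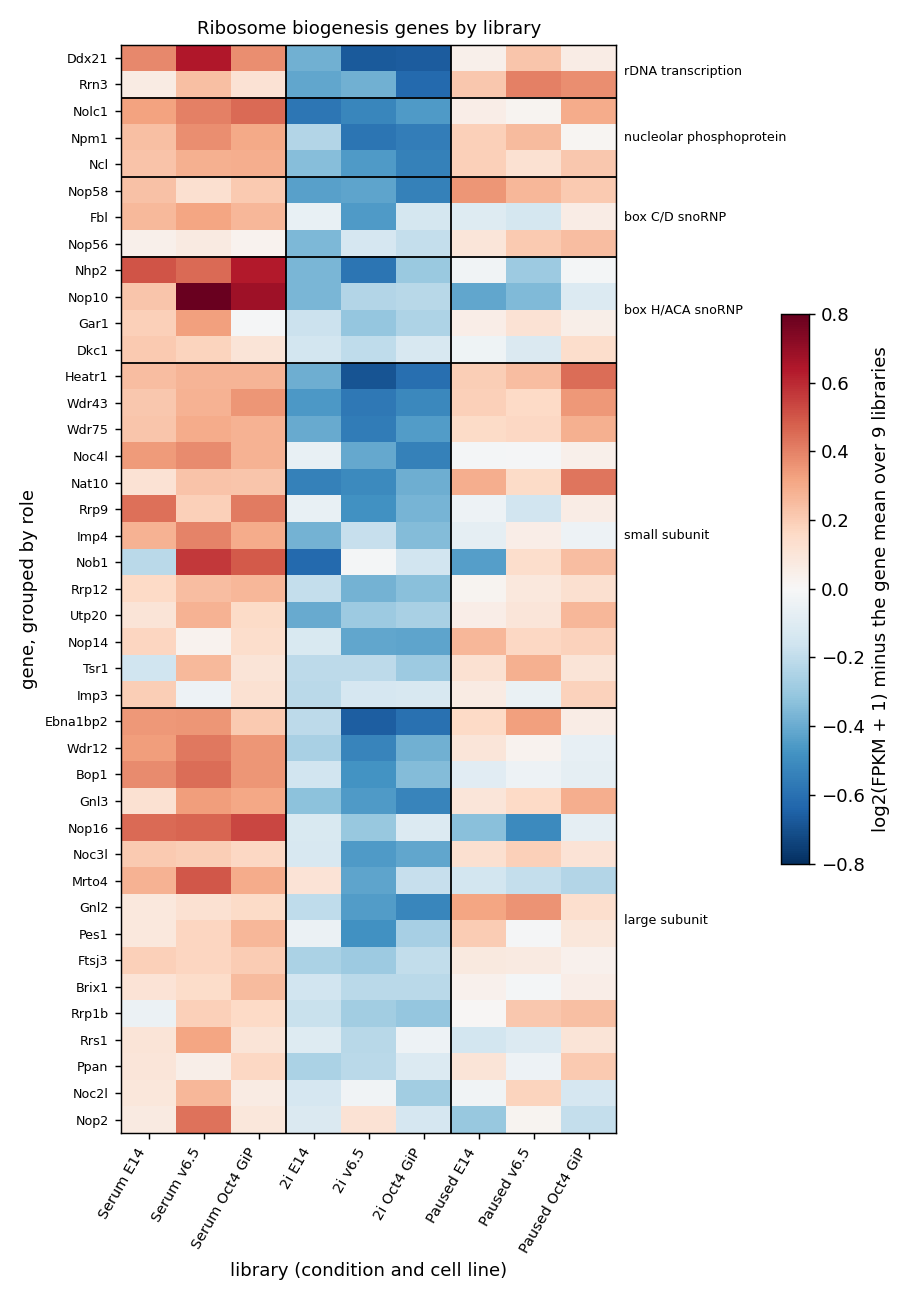
Heat map of 41 genes, grouped by role, in 9 libraries, with colour for log2(FPKM + 1) minus the mean of the gene over the 9 libraries. The 2i columns are mostly blue and the Serum columns mostly red, while the Paused columns hold both colours, with Nop10 and Nop16 among the blue ones.

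In FPKM the members' median change kept its sign in every line in each of the 3 comparisons. In 2i against Serum the median log2 difference of the 41 members was -0.44, -0.65 and -0.64, where the median of all tested genes was 0.046, 0.020 and -0.0053. In Paused against Serum the members' median was -0.12, -0.16 and -0.14, and 31, 34 and 27 of the 41 were lower. The median of all tested genes there was -0.023, -0.017 and 0, and 52.4%, 51.7% and 49.9% of them were lower. Left without v6.5 or without Oct4 GiP in every condition, the fit called 22 and 12 members lower in 2i than in Serum, and without E14 it called 34. Over all tested genes these fits gave 1225, 554 and 2002 lower calls, in place of 2399 with all lines. The sum of the 41 FPKM values was 9159, 9801 and 9580 in Serum, 6566, 5871 and 5958 in 2i, and 8464, 8542 and 8518 in Paused. The groups did not overlap, with Paused between 2i and Serum in each line. Npm1 and Ncl made up a large share, and without them the sum was 5058, 5385 and 5289 in Serum, 3677, 3454 and 3576 in 2i, and 4480, 4530 and 4778 in Paused, again without overlap.

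On the authors' normalized expression, all 41 members were called lower in Paused than in Serum (76.9% of all tested genes were called lower) and all 41 lower in 2i than in Serum (35.7%). None was called higher in any comparison on this scale, where 0.378% of all genes were higher in Paused than in Serum, 9.76% in 2i than in Serum and 6.21% in Paused than in 2i. The whole table shifts with these constants. The median log2 fold change of all tested genes was -0.88 in Paused against Serum, -0.33 in 2i against Serum and -0.56 in Paused against 2i, and that of the members was -1.06, -0.91 and -0.17. Only in the last comparison did the direction of the members' median turn, and there they stood above the median gene on either scale. By line, the members' median for Paused against 2i on this scale was -0.47, 0.035 and -0.036. In bulk RNA, fewer cells of a type and less RNA per cell cannot be told apart, and the sources used here do not say how the authors' constants were made. The values below are FPKM and so relative to the other genes of a library, unless the authors' scale is named.

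**Figure D2:**
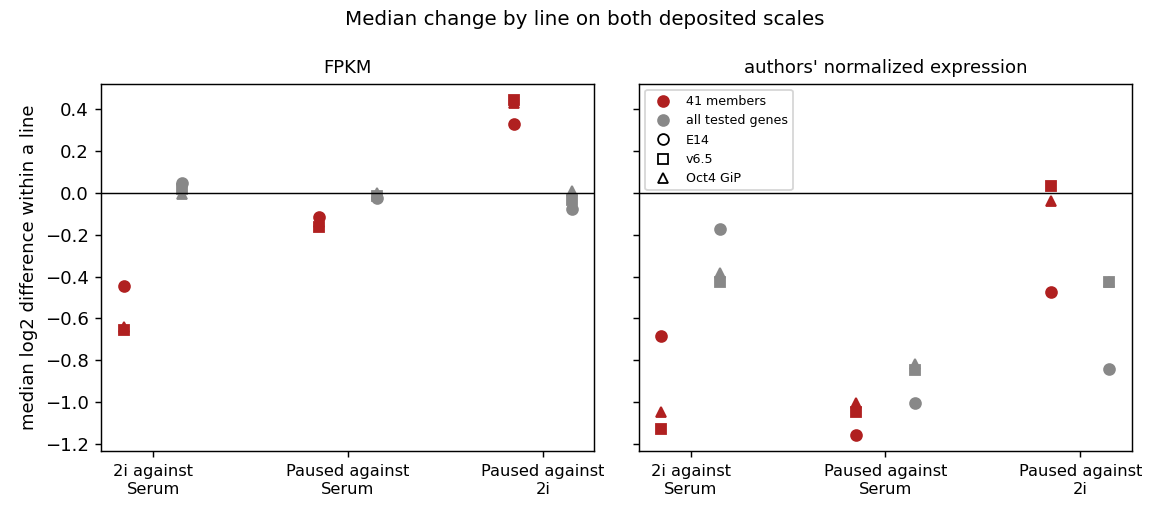
Median log2 difference within each line for the 41 members (red) and all tested genes (grey), in FPKM (left) and on the authors' normalized expression (right), with a symbol per line. Red lies below grey for 2i and for Paused against Serum on both scales and above grey for Paused against 2i, where the red medians are 0.33, 0.44 and 0.43 in FPKM but -0.47, 0.035 and -0.036 on the authors' scale.

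Some members cannot be measured cleanly. The sources used here do not say whether fragments were counted by strand, and exons of Bop1, Imp4, Noc2l, Nop14, Pes1, Rrp1b and Tsr1 overlap a gene on the opposite strand by at least 50 bases in GENCODE M21, up to 1159 bases for Tsr1 with Srr. Transcripts of Ddx21, Fbl, Imp3, Mrto4, Nop56, Npm1, Pes1 and Wdr12 match another annotated gene, in part pseudogenes, over at least 300 bases at 95% identity or more, so that the split of their fragments is uncertain. Their values are given with this limit.

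Transcription of ribosomal DNA was represented by Rrn3 and Ddx21. Rrn3 lets RNA polymerase I start and is a known target of mTor signalling, and its FPKM was 77.4, 87.4 and 80.3 in Serum, 55.2, 56.4 and 47.6 in 2i, and 85.99, 98.01 and 96.1 in Paused. Every 2i library was below every other, and Paused exceeded Serum within each line although the groups overlapped. Rrn3 fell in 2i against Serum (log2 fold change -0.62 ± 0.089, limma adjusted p = 0.0037) and rose in Paused against 2i (0.81 ± 0.089, adjusted p = 0.0014), whereas Paused against Serum was not called (0.19 ± 0.089, adjusted p = 0.18). On the authors' scale Rrn3 read 289, 297 and 292 in Serum, 175, 138 and 131 in 2i, and 156, 181 and 191 in Paused, with Serum highest in every line. Ddx21, a nucleolar RNA helicase, had an FPKM of 170.2, 204 and 169 in Serum, 99.5, 81.5 and 81.6 in 2i, and 134, 152 and 136 in Paused. Its 3 groups did not overlap, with Paused between the others. Ddx21 showed the strongest fall of the list in 2i (log2 fold change -1.04 ± 0.11, limma adjusted p = 0.0018) and was higher in Paused than in 2i (0.68 ± 0.11, adjusted p = 0.0049), and its difference between Paused and Serum was not called (-0.36 ± 0.11, adjusted p = 0.074). The joined row of Atxn7l3 and Ubtf had an FPKM of 160.0, 119.9 and 159 in Serum, 139, 148 and 152 in 2i, and 168, 169 and 182 in Paused. It was called in no comparison (log2 fold change 0.25 ± 0.11, limma adjusted p = 0.15 in Paused and 0.011 ± 0.11, adjusted p = 0.94 in 2i against Serum), but the row cannot be divided between its 2 genes.

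The bases before the start are printed for the members with an E-box there (Rrn3, Nop2 and Imp4) and for Nhp2, with an Ets motif. They are the 250 bases upstream of the start in RefSeq on GRCm38.p6, the assembly that mm10 denotes, with capitals for the E-box CACGTG, which Myc proteins can bind, and for the Ets motif CCGGAAG or its reverse complement. A promoter entry was found for 36 of the 42 genes.
Rrn3, chr16:13780449-13780698, plus strand: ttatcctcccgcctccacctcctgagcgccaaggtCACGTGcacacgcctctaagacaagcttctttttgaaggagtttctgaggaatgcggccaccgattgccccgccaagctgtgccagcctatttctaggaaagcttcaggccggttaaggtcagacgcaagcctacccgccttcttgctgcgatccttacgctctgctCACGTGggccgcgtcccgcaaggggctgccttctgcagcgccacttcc
Nop2, chr6:125131633-125131882, plus strand: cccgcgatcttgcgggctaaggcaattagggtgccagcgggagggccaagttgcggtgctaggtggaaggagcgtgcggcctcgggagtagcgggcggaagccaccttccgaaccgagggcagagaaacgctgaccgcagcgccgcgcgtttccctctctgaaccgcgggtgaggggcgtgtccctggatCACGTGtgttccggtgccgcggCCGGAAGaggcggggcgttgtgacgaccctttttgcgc
Imp4, chr1:34439579-34439828, plus strand: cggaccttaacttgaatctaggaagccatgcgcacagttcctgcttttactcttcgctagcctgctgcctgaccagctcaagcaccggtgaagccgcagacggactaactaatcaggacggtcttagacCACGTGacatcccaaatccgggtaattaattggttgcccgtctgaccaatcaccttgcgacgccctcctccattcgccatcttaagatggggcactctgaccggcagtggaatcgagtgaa
Nhp2, chr11:51619523-51619772, plus strand: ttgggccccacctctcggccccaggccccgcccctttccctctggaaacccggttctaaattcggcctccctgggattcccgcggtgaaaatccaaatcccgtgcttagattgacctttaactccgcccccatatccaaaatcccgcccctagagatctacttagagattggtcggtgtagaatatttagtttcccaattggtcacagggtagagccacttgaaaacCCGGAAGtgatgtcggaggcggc

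Rrn3 carried the E-box at 215 and at 48 bases before the start, Imp4 at 121 and Nop2 at 60, each counted to the first base of the motif. No other of the 36 held it in this window, a share of 8.33%, against 8.83% of 9148 tested genes and 6.05% of 27025 genes. The Ets motif was found in 6 of 36 (16.7%), against 14.4% and 7.05%, and lay 38 bases before the start of Nop2 and 23 before that of Nhp2. Both strands were searched, and the 2 motifs did not overlap in the 4 sequences shown. The counts depend on the window. With the 50 bases after the start added, and every annotated start of a gene searched, the E-box was found in 7 of 36 members (19.4%), against 12.1% of tested genes and 8.09% of all, and the Ets motif in 12 (33.3%), against 20.6% and 9.93%. The additional E-boxes began 3 bases after the start in Pes1, 18 in Wdr43, 25 in Tsr1 and 38 in Utp20, counting the first transcribed base as 1. The Nrf1 motif, also searched in that window, was found in 5 members (13.9%), against 11.8% of tested genes. A match describes the letters and says nothing of binding. In 2i against Serum, members with an E-box in the wider window had a median log2 fold change of -0.49 (n = 7, -0.80 to -0.25). Those without it had -0.65 (n = 28, -1.04 to -0.25). In Paused against Serum the medians were -0.050 and -0.12. These differences were not tested. In the same libraries the FPKM of Myc was 55.2, 63.3 and 64.6 in Serum, 3.80, 5.40 and 7.51 in 2i, and 66.5, 99.2 and 84.05 in Paused, and that of Mycn was 146, 196 and 194 in Serum, 33.4, 40.6 and 57.2 in 2i, and 207, 149 and 199.8 in Paused. The 2i libraries were the lowest for both genes, without overlap. Myc fell in 2i against Serum (log2 fold change -3.27 ± 0.15, limma adjusted p = 0.00056) and so did Mycn (-2.03 ± 0.19, adjusted p = 0.0014), while neither was called in Paused against Serum (0.43 ± 0.15, adjusted p = 0.089 and 0.048 ± 0.19, adjusted p = 0.88). Whether Myc or Mycn had a part in the members' levels was not tested.

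**Figure D3:**
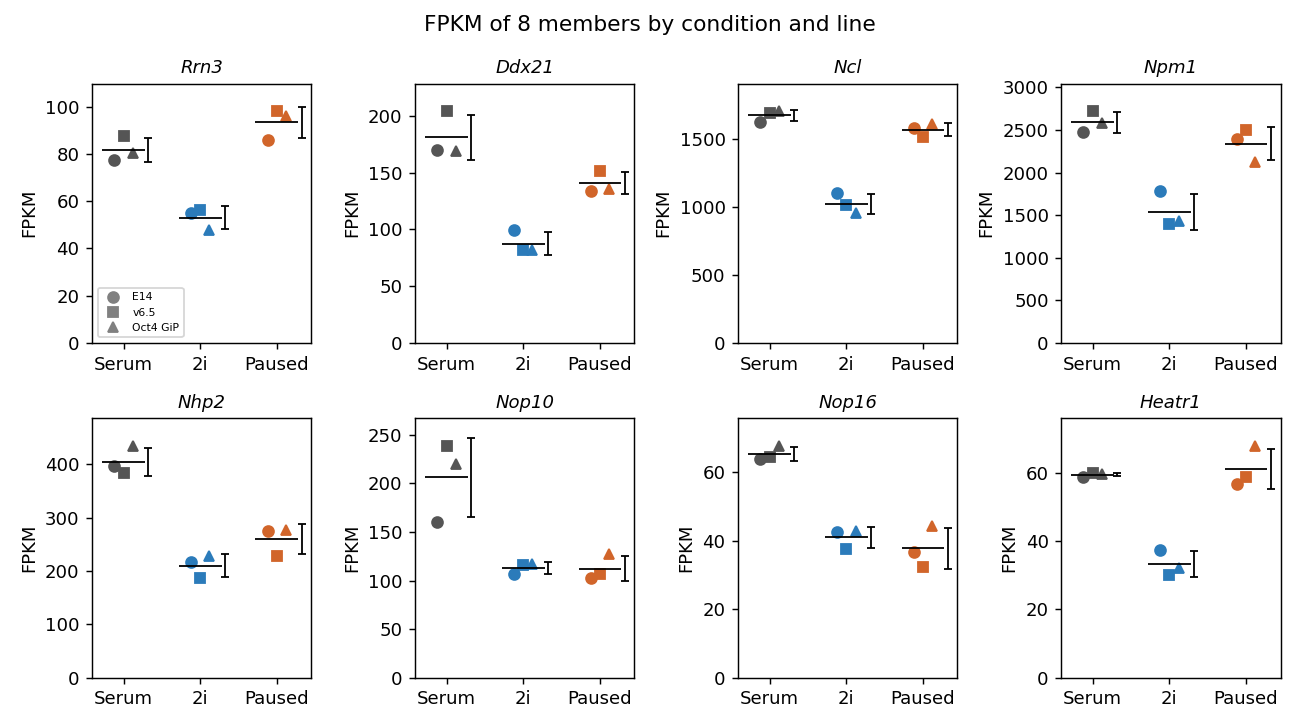
FPKM of 8 members in Serum (grey), 2i (blue) and Paused (orange), with a symbol per line, a bar at the mean and a bracket of 1 SD either side (n = 3). The 2i libraries lie lowest for Rrn3, Ddx21, Ncl, Npm1 and Heatr1, while Nop10 and Nop16 lie as low in Paused as in 2i.

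The abundant phosphoproteins of the nucleolus showed the same order. Npm1, a nucleolar chaperone, was the highest member in all 9 libraries, at an FPKM of 2474, 2719 and 2585 in Serum, 1787, 1398 and 1427 in 2i, and 2397, 2496 and 2125 in Paused. Serum and Paused overlapped, and the 2i libraries lay below both. Npm1 fell in 2i (log2 fold change -0.76 ± 0.11, limma adjusted p = 0.0041) from 2593 ± 123 FPKM (SD, n = 3) to 1537 ± 217 FPKM (SD, n = 3) and was higher in Paused than in 2i (0.61 ± 0.11, adjusted p = 0.0070), but was not called in Paused against Serum (-0.15 ± 0.11, adjusted p = 0.38). Ncl, which binds ribosomal RNA precursors, came next at an FPKM of 1627, 1697 and 1706 in Serum, 1101, 1018 and 955 in 2i, and 1587, 1516 and 1615 in Paused. The 3 Paused libraries were each below all 3 Serum libraries, by a small margin, and the 2i libraries were far below. Ncl fell in 2i against Serum (log2 fold change -0.71 ± 0.082, limma adjusted p = 0.0021) and rose in Paused against 2i (0.62 ± 0.082, adjusted p = 0.0023), whereas Paused against Serum was not called (-0.092 ± 0.082, adjusted p = 0.45). Nolc1, a chaperone of small nucleolar ribonucleoproteins, had an FPKM of 208, 219 and 227 in Serum, 111, 115 and 121 in 2i, and 172, 168 and 204 in Paused. All 3 groups were apart. Nolc1 fell in 2i (log2 fold change -0.91 ± 0.074, limma adjusted p = 0.00092) and was higher in Paused than in 2i (0.64 ± 0.074, adjusted p = 0.0016), and its Paused value missed the threshold against Serum (-0.27 ± 0.074, adjusted p = 0.051). On the authors' scale Npm1 was 9248, 9253 and 9413 in Serum, 5673, 3431 and 3933 in 2i, and 4348, 4599 and 4231 in Paused, where 2i and Paused overlapped.

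Of the box C/D proteins, which carry the guide RNAs for methylation of ribosomal RNA, Nop56 was the highest, at an FPKM of 509.7, 519.5 and 504 in Serum, 386, 450.4 and 434 in 2i, and 529.9, 572 and 588 in Paused. It was the one member whose Paused libraries all lay above all Serum libraries, a pattern seen in 17.3% of all tested genes. Nop56 fell in 2i (log2 fold change -0.27 ± 0.073, limma adjusted p = 0.026), rose in Paused against 2i (0.41 ± 0.073, adjusted p = 0.0060) and was not called against Serum (0.14 ± 0.073, adjusted p = 0.22). Its partner Nop58 had an FPKM of 240.3, 223 and 236 in Serum, 151, 152 and 139.9 in 2i, and 261, 246 and 236 in Paused. Nop58 fell in 2i (log2 fold change -0.66 ± 0.071, limma adjusted p = 0.0018) and rose in Paused against 2i (0.74 ± 0.071, adjusted p = 0.00099), and its Paused and Serum libraries overlapped. Fbl, the methyltransferase of the particle, had an FPKM of 473, 491 and 475 in Serum, 379.7, 289 and 359 in 2i, and 368, 358 and 411 in Paused. Paused lay below Serum without overlap and overlapped with 2i. Fbl fell in 2i against Serum (log2 fold change -0.49 ± 0.10, limma adjusted p = 0.013), and was called neither in Paused against Serum (-0.34 ± 0.10, adjusted p = 0.068) nor in Paused against 2i (0.15 ± 0.10, adjusted p = 0.27).

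The box H/ACA particle, which converts uridines to pseudouridine and whose core proteins also serve telomerase, held Nop10 and Nhp2, both of which were called lower in Paused than in Serum. Nhp2, on chromosome 11 (51619773 to 51623718), had an FPKM of 397, 383 and 434 in Serum, 217, 186 and 228 in 2i, and 274, 228 and 277 in Paused. All 3 groups were apart, with 2i lowest and Paused nearer to 2i than to Serum. Nhp2 fell in Paused (log2 fold change -0.64 ± 0.071, limma adjusted p = 0.011) and in 2i against Serum (-0.94 ± 0.071, adjusted p = 0.00090), and was higher in Paused than in 2i (0.31 ± 0.071, adjusted p = 0.015). Nop10, on chromosome 2 (112261926 to 112262898), had an FPKM of 160.2, 238 and 220.2 in Serum, 106, 117 and 117 in 2i, and 103, 107 and 127 in Paused. The Serum library of E14 was lower than the others of that condition, but all Serum libraries exceeded all others, and 2i and Paused overlapped. Nop10 fell in Paused (log2 fold change -0.86 ± 0.11, limma adjusted p = 0.014) and in 2i against Serum (-0.84 ± 0.11, adjusted p = 0.0032), and Paused against 2i was not called (-0.018 ± 0.11, adjusted p = 0.92). Gar1 had an FPKM of 109.7, 121 and 95.6 in Serum, 85.4, 77.5 and 81.1 in 2i, and 99.9, 104 and 99.3 in Paused. Gar1 fell in 2i (log2 fold change -0.41 ± 0.094, limma adjusted p = 0.016) and rose in Paused against 2i (0.31 ± 0.094, adjusted p = 0.037). Dkc1, the pseudouridine synthase itself, had an FPKM of 135, 132 and 126 in Serum, 106, 101 and 106 in 2i, and 114, 108 and 129 in Paused. Dkc1 fell in 2i (log2 fold change -0.32 ± 0.085, limma adjusted p = 0.025) and was called in neither comparison with Paused, where 1 Paused library lay within the range of Serum. Of the 4 core proteins, therefore, 4 fell in 2i and 2 in Paused against Serum, where 18.9% and 10.5% of all tested genes were called lower. On the authors' scale Nhp2 read 1483, 1303 and 1581 in Serum, 688, 457 and 627 in 2i, and 498, 421 and 552 in Paused, and Nop10 read 599, 811 and 802 in Serum, 337, 286 and 323 in 2i, and 186, 198 and 253 in Paused.

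Small subunit assembly begins with factors that join the precursor as it is transcribed. Heatr1, on chromosome 13 (12395375 to 12438893), Wdr43 and Wdr75 belong to this early complex. Heatr1 had an FPKM of 58.9, 59.9 and 59.7 in Serum, 37.4, 30.2 and 32.2 in 2i, and 56.7, 58.9 and 67.8 in Paused. The Serum libraries were close to each other, Paused straddled them, and the 2i libraries lay below. Heatr1 fell in 2i (log2 fold change -0.83 ± 0.11, limma adjusted p = 0.0027) and showed the largest rise of the list in Paused against 2i (0.86 ± 0.11, adjusted p = 0.0019). Wdr43 had an FPKM of 89.7, 93.3 and 98.6 in Serum, 55.8, 51.5 and 53.6 in 2i, and 87.9, 86.2 and 98.1 in Paused. Wdr43 fell in 2i (log2 fold change -0.80 ± 0.076, limma adjusted p = 0.0015) and rose in Paused against 2i (0.75 ± 0.076, adjusted p = 0.0012). Wdr75 had an FPKM of 70.7, 74.5 and 73.6 in Serum, 45.6, 40.7 and 44.2 in 2i, and 67.3, 68.1 and 74.02 in Paused. Wdr75 too fell in 2i (log2 fold change -0.74 ± 0.079, limma adjusted p = 0.0017) and rose in Paused against 2i (0.67 ± 0.079, adjusted p = 0.0017). In Paused against Serum the 3 genes gave 0.035, -0.050 and -0.064 on the log2 scale, none called. Nat10, which acetylates cytidines of the small subunit RNA, had an FPKM of 53.3, 57.5 and 57.3 in Serum, 33.5, 34.2 and 37.2 in 2i, and 60.3, 54.6 and 66.4 in Paused. Paused overlapped with Serum and both lay above 2i. Nat10 fell in 2i (log2 fold change -0.67 ± 0.083, limma adjusted p = 0.0025) and rose in Paused against 2i (0.77 ± 0.083, adjusted p = 0.0013).

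The particle around the U3 small nucleolar RNA, which is needed for cutting out the small subunit RNA, was more mixed. Rrp9, a protein of that particle and the member of highest FPKM among the small subunit factors, had an FPKM of 188, 158 and 185 in Serum, 133, 98.6 and 107 in 2i, and 134, 124 and 144 in Paused. Serum lay above the other conditions, which overlapped. Rrp9 fell in Paused (log2 fold change -0.39 ± 0.094, limma adjusted p = 0.037) and in 2i against Serum (-0.65 ± 0.094, adjusted p = 0.0038). Imp4, a partner of the same particle, had an FPKM of 56.3, 61.2 and 57.1 in Serum, 35.5, 40.7 and 36.2 in 2i, and 43.98, 48.2 and 45.03 in Paused. Its 3 groups did not overlap. Imp4 fell in Paused (log2 fold change -0.34 ± 0.068, limma adjusted p = 0.024) and in 2i (-0.62 ± 0.068, adjusted p = 0.0018), and was higher in Paused than in 2i (0.28 ± 0.068, adjusted p = 0.017). Imp3, its other partner, ranged from 82.0 to 109.5 FPKM over the 9 libraries and was called in no comparison, and 2i against Serum just missed the threshold (log2 fold change -0.25 ± 0.086, limma adjusted p = 0.058), although its 2i libraries lay below all Serum libraries.

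Nop14 and Noc4l bind each other in the same assembly, by work in yeast, and Utp20 is one of its large scaffold proteins. Nop14 had an FPKM of 65.3, 58.9 and 63.95 in Serum, 53.03, 43.2 and 42.96 in 2i, and 69.9, 64.9 and 65.9 in Paused. Nop14 fell in 2i (log2 fold change -0.43 ± 0.081, limma adjusted p = 0.0083) and rose in Paused against 2i (0.53 ± 0.081, adjusted p = 0.0037), and each Paused value exceeded the Serum value of its line, with overlap between the groups. Noc4l had an FPKM of 62.98, 64.7 and 60.2 in Serum, 47.6, 36.9 and 33.8 in 2i, and 49.03, 49.1 and 50.8 in Paused. The Paused libraries were close to each other, below Serum and above 2i. Noc4l fell in 2i (log2 fold change -0.67 ± 0.12, limma adjusted p = 0.0066) and missed the threshold in Paused against Serum (-0.33 ± 0.12, adjusted p = 0.097) and against 2i (0.34 ± 0.12, adjusted p = 0.055). Utp20 had an FPKM of 37.7, 42.7 and 39.2 in Serum, 26.3, 28.5 and 29.2 in 2i, and 36.5, 37.6 and 42.4 in Paused. Utp20 fell in 2i (log2 fold change -0.49 ± 0.082, limma adjusted p = 0.0057) and rose in Paused against 2i (0.46 ± 0.082, adjusted p = 0.0064).

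Late factors of the small subunit act around its export and final cut. Rrp12, an export factor, had an FPKM of 49.1, 52.3 and 53.1 in Serum, 38.3, 33.6 and 34.7 in 2i, and 44.6, 46.6 and 48.2 in Paused, with 3 groups that did not overlap. Rrp12 fell in 2i (log2 fold change -0.52 ± 0.086, limma adjusted p = 0.0055) and rose in Paused against 2i (0.38 ± 0.086, adjusted p = 0.014). Tsr1, a late assembly factor, had an FPKM of 51.8, 69.5 and 62.4 in Serum, 49.9, 50.04 and 47.2 in 2i, and 63.2, 70.9 and 62.3 in Paused. Tsr1 fell in 2i, close to the threshold (log2 fold change -0.30 ± 0.099, limma adjusted p = 0.049), and rose in Paused against 2i (0.41 ± 0.099, adjusted p = 0.017). Nob1, the endonuclease that makes the last cut in small subunit RNA, had an FPKM of 83.6, 144 and 137 in Serum, 62.8, 96.3 and 87.4 in 2i, and 71.5, 107 and 116 in Paused. In every condition E14 was the lowest line by a wide margin, so that the conditions overlapped although 2i was below Serum in each line. Nob1 fell in 2i (log2 fold change -0.54 ± 0.084, limma adjusted p = 0.0046) in the fit that sets the line aside. It was also the 1 member of 41 that the F test over lines called, where 1.5% of all tested genes were called. That call was lost on leaving out any 1 of the 9 libraries, when all tested genes gave 7 to 71 calls in place of 191. Of the 13 small subunit members, 12 fell in 2i and 2 (15.4%) in Paused against Serum, and 9 were higher in Paused than in 2i. The shares of all tested genes were 18.9%, 10.5% and 19.8%. On the authors' scale 0 of the 13 were called higher in Paused than in 2i, against 6.21% of all tested genes.

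Large subunit assembly uses the complex of Pes1, Bop1 and Wdr12, which is needed to process the large subunit RNA. Pes1 had an FPKM of 156, 165 and 176 in Serum, 142, 105 and 122 in 2i, and 169, 145 and 156 in Paused. Paused and Serum overlapped, and the range of 2i was wide. Pes1 fell in 2i (log2 fold change -0.44 ± 0.11, limma adjusted p = 0.021) and rose in Paused against 2i (0.36 ± 0.11, adjusted p = 0.037). Bop1 had an FPKM of 112, 117 and 109.9 in Serum, 77.2, 61.2 and 67.3 in 2i, and 80.5, 83.6 and 81.8 in Paused. All groups were apart, and the Paused libraries were close to each other. Bop1 fell in Paused (log2 fold change -0.46 ± 0.097, limma adjusted p = 0.027) and in 2i against Serum (-0.72 ± 0.097, adjusted p = 0.0031). Wdr12 had an FPKM of 38.6, 41.02 and 39.2 in Serum, 25.2, 20.8 and 23.1 in 2i, and 32.6, 31.00 and 29.02 in Paused, with all groups apart. Wdr12 fell in Paused (log2 fold change -0.35 ± 0.093, limma adjusted p = 0.048) and in 2i (-0.76 ± 0.093, adjusted p = 0.0024), and was higher in Paused than in 2i (0.41 ± 0.093, adjusted p = 0.014). Of the 3 partners, therefore, Bop1 and Wdr12 fell in Paused against Serum and Pes1 was not called (log2 fold change -0.081 ± 0.11, limma adjusted p = 0.62).

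Ppan, which with Brix1 belongs to a family of RNA-binding assembly factors, was the large subunit member of highest mean FPKM, and its values were 167, 161 and 175 in Serum, 130.4, 134 and 144 in 2i, and 167, 152 and 180.1 in Paused. Ppan fell in 2i (log2 fold change -0.30 ± 0.070, limma adjusted p = 0.018) and rose in Paused against 2i (0.28 ± 0.070, adjusted p = 0.019), and Paused against Serum was not called (-0.012 ± 0.070, adjusted p = 0.92). Brix1 had an FPKM of 65.97, 67.6 and 72.9 in Serum, 54.8, 52.5 and 52.5 in 2i, and 62.5, 60.4 and 63.3 in Paused. Its groups did not overlap, and it fell in 2i (log2 fold change -0.36 ± 0.073, limma adjusted p = 0.010) with no call in Paused against Serum (-0.15 ± 0.073, adjusted p = 0.20). Ebna1bp2, whose yeast counterpart binds Rrs1, had an FPKM of 96.6, 97.3 and 87.9 in Serum, 65.5, 47.7 and 49.8 in 2i, and 84.98, 95.6 and 79.1 in Paused. Ebna1bp2 fell in 2i (log2 fold change -0.79 ± 0.12, limma adjusted p = 0.0045) and rose in Paused against 2i (0.67 ± 0.12, adjusted p = 0.0065). Rrs1, which in yeast brings a small ribosomal RNA into the subunit, ranged from 63.3 to 92.5 FPKM and was called in no comparison, and 2i against Serum just missed the threshold (log2 fold change -0.30 ± 0.11, limma adjusted p = 0.065). Rrp1b, a nucleolar protein that binds a protein phosphatase, had an FPKM of 91.7, 108 and 106 in Serum, 83.7, 78.2 and 76.5 in 2i, and 95.6, 110.3 and 112 in Paused. Rrp1b fell in 2i (log2 fold change -0.35 ± 0.096, limma adjusted p = 0.028) and rose in Paused against 2i (0.41 ± 0.096, adjusted p = 0.015).

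The nucleolar GTPases Gnl2 and Gnl3, of which Gnl3 is known as nucleostemin for its level in stem cells, were not called between Paused and Serum. Gnl3 had an FPKM of 141, 163 and 160.5 in Serum, 103, 94.2 and 89.2 in 2i, and 138, 145 and 158 in Paused. Gnl3 fell in 2i (log2 fold change -0.69 ± 0.10, limma adjusted p = 0.0038) and rose in Paused against 2i (0.62 ± 0.10, adjusted p = 0.0044). Gnl2 had an FPKM of 60.5, 62.2 and 63.7 in Serum, 49.5, 41.6 and 39.5 in 2i, and 71.3, 73.7 and 62.9 in Paused, with 2 Paused libraries above all Serum libraries. Gnl2 fell in 2i (log2 fold change -0.51 ± 0.10, limma adjusted p = 0.0097) and rose in Paused against 2i (0.66 ± 0.10, adjusted p = 0.0035). Noc2l and Noc3l have yeast counterparts that bind each other on the precursor. Noc3l, the lowest member in all 9 libraries, had an FPKM of 26.2, 26.04 and 25.4 in Serum, 20.6, 16.2 and 16.7 in 2i, and 24.8, 25.9 and 24.5 in Paused. Noc3l fell in 2i (log2 fold change -0.52 ± 0.099, limma adjusted p = 0.0087) and rose in Paused against 2i (0.48 ± 0.099, adjusted p = 0.010). Noc2l had an FPKM of 96.7, 109 and 95.02 in Serum, 82.5, 89.04 and 74.8 in 2i, and 89.2, 103 and 82.7 in Paused. Noc2l fell in 2i (log2 fold change -0.29 ± 0.068, limma adjusted p = 0.017) and its Paused libraries overlapped with both other groups.

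Nop2 and Ftsj3 are related to methyltransferases of large subunit RNA. Ftsj3 had an FPKM of 155, 153 and 156 in Serum, 113, 111 and 118 in 2i, and 143, 143 and 139 in Paused, with narrow groups that did not overlap. Ftsj3 fell in 2i (log2 fold change -0.44 ± 0.066, limma adjusted p = 0.0042) and rose in Paused against 2i (0.31 ± 0.066, adjusted p = 0.011), and was not called in Paused against Serum (-0.13 ± 0.066, adjusted p = 0.22). Nop2 had an FPKM of 121, 156 and 123 in Serum, 106, 125 and 105 in 2i, and 93.1, 117 and 100.5 in Paused. In each condition v6.5 was highest, and in each line the order was Serum, 2i and Paused from high to low, a pattern that no other member showed in all lines. Nop2 fell in Paused (log2 fold change -0.36 ± 0.069, limma adjusted p = 0.023) and in 2i against Serum (-0.25 ± 0.069, adjusted p = 0.032), and Paused against 2i was not called (-0.11 ± 0.069, adjusted p = 0.23).

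Nop16 and Mrto4 were the large subunit members with the lowest Paused values relative to Serum. Nop16, an assembly factor on chromosome 13 (54584191 to 54590097), had an FPKM of 63.9, 64.5 and 67.6 in Serum, 42.7, 37.5 and 42.9 in 2i, and 36.7, 32.3 and 44.2 in Paused. The Serum libraries were close to each other and far above the other 6. Nop16 fell in Paused (log2 fold change -0.79 ± 0.094, limma adjusted p = 0.012) and in 2i against Serum (-0.66 ± 0.094, adjusted p = 0.0036), and Paused against 2i was not called (-0.13 ± 0.094, adjusted p = 0.31). Mrto4, which in yeast holds the place of a ribosomal stalk protein until late assembly, had an FPKM of 131, 152 and 133 in Serum, 117, 80.3 and 94.9 in 2i, and 97.3, 94.6 and 91.5 in Paused. Serum lay above the rest, and the range of 2i enclosed that of Paused. Mrto4 fell in Paused (log2 fold change -0.55 ± 0.14, limma adjusted p = 0.042) and in 2i (-0.52 ± 0.14, adjusted p = 0.026). On the authors' scale Nop16 read 239, 219 and 246 in Serum, 135, 92.1 and 118 in 2i, and 66.6, 59.5 and 87.98 in Paused, with Paused below 2i in each line. Of the 16 large subunit members, 15 fell in 2i and 5 in Paused against Serum, and 9 were higher in Paused than in 2i. The shares of all tested genes were 18.9%, 10.5% and 19.8%. On the authors' scale 0 of the 16 were called higher in Paused than in 2i and 5 lower, against 6.21% and 54.5% of all tested genes.

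**Figure D4:**
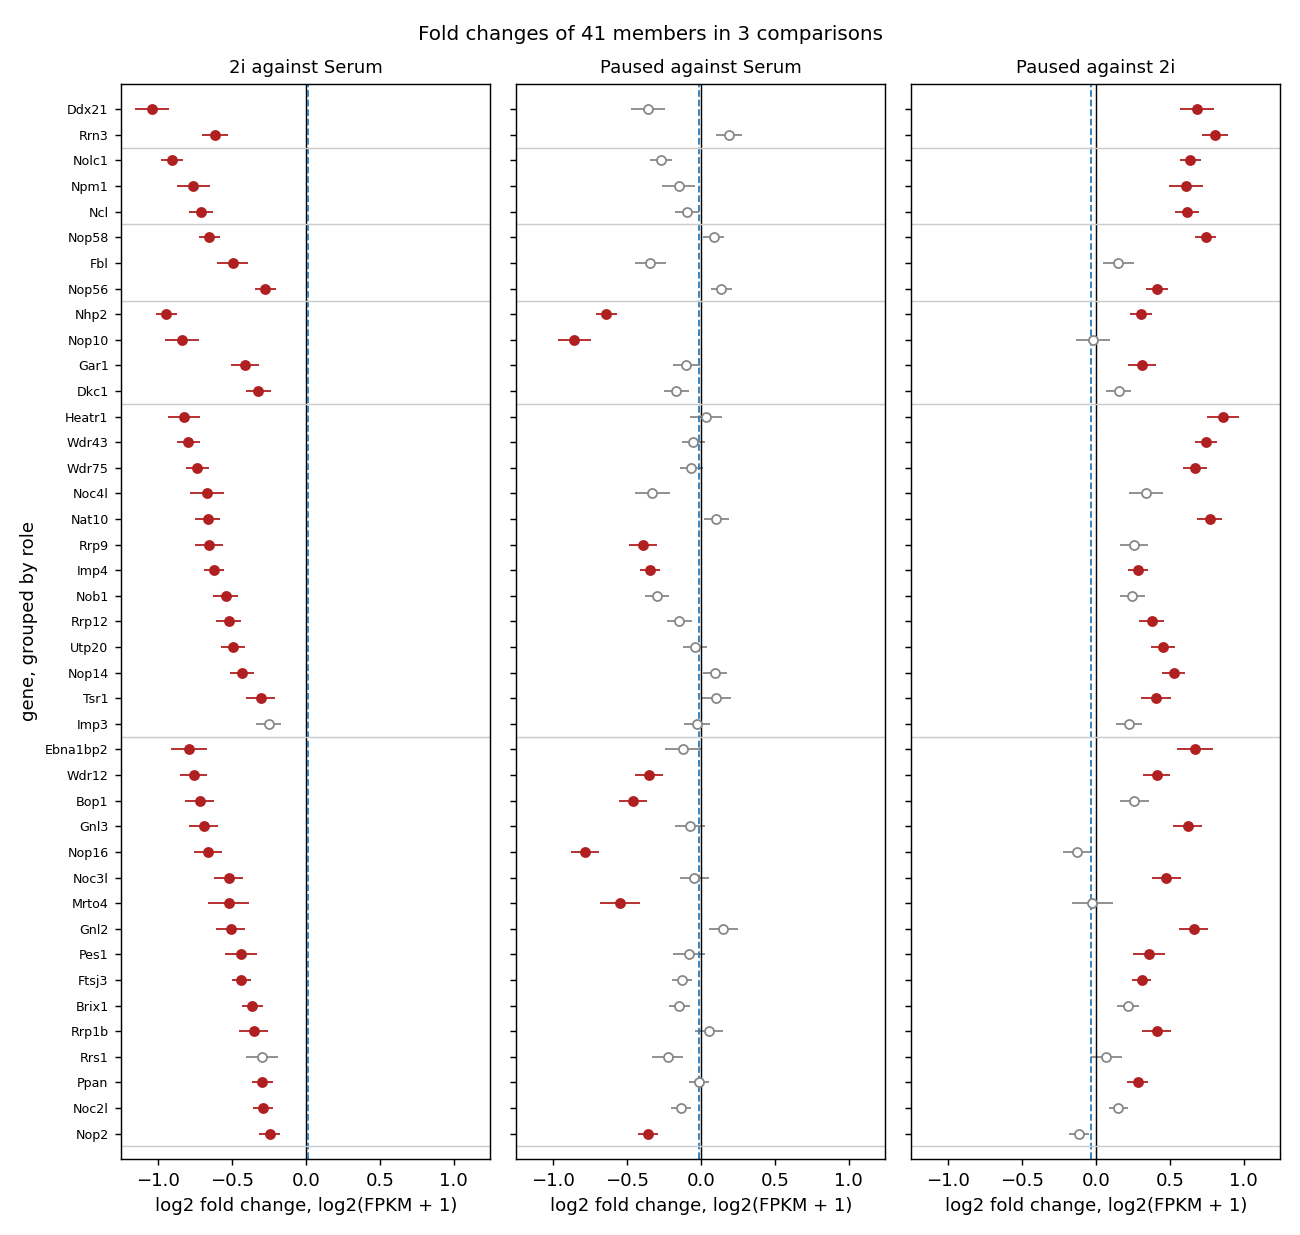
Log2 fold changes on the log2(FPKM + 1) scale with their standard errors for 41 members, grouped by role, in 3 comparisons. Filled red points passed an adjusted p under 0.05, open grey points did not, and the dashed line is the median of all tested genes. The 39 calls of 2i against Serum and the 9 of Paused against Serum lie to the left and the 27 of Paused against 2i to the right, which on the authors' scale became 0 to the right and 7 to the left, where 54.5% of all tested genes were called lower.

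Set against Serum, the 2 conditions ranked the members differently. In 2i the lowest members were Ddx21, Nhp2 and Nolc1, at 48.3%, 51.9% and 53.0% of the Serum mean, and in Paused they were Nop10, Nop16 and Nhp2, at 54.5%, 57.8% and 64.3%. Rrn3, Gnl2 and Nop56 were the highest in Paused, at 114%, 112% and 110% of Serum. The first stood at 64.9%, the second at 70.1% and the third at 82.8% in 2i. Mean FPKM in Paused was above that in 2i for 37 members, up to 1.84 times for Heatr1, and below it for Nop16, Nop2, Mrto4 and Nop10. That ordering between Paused and 2i is in FPKM and changes on the authors' scale, where 28 of the 41 fold changes lie below 0.

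**Figure D5:**
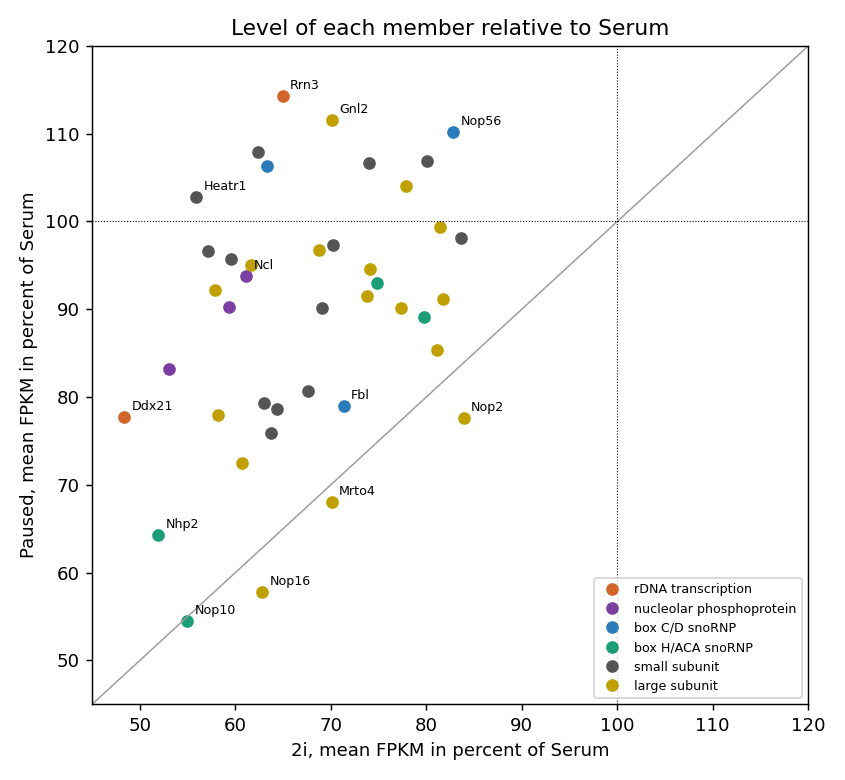
Mean FPKM of each member in Paused against that in 2i, each in percent of its Serum mean, coloured by role. Points above the grey diagonal are higher in Paused than in 2i in FPKM, whereas on the authors' scale 28 of the 41 are lower, and dotted lines mark 100% of Serum. All 41 points lie left of the vertical line, 32 lie below the horizontal one, and Nop10, Nop16, Mrto4 and Nop2 lie on or below the diagonal.

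The members lower in Paused were mostly genes whose longest annotated transcript was short. That length, in GENCODE M21, had a median of 1756 bases in the 9 called lower, against 3185 in the other 32. Wdr12 (10012 bases) and Imp4 (5836) were long exceptions, and Imp3 (924), Gar1 (1271) and Npm1 (1633) were short but not called. The longest transcript need not be the transcript expressed, and that of Imp4 is nearly as long as its gene (5919 bases). These lengths, and the correlations that follow, therefore do not measure the length of the RNA sequenced. Across the 41 members, log2 fold change and log2 length were related at Pearson r = 0.45 (Spearman 0.44) in Paused against Serum, -0.11 (-0.11) in 2i against Serum and 0.52 (0.58) in Paused against 2i. The same values over 12057 tested genes with a length were 0.18 (0.27), 0.031 (0.077) and 0.084 (0.11). These points are genes of the same 9 libraries and not independent replicates. With a correction for length in each library, the fit called 9 members lower in Paused against Serum, 39 lower in 2i against Serum and 33 higher in Paused against 2i. Of the 12232 genes in that fit, 935, 2543 and 2743 were called so, against 1340, 2399 and 2517 of 12711 without the correction.

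Beyond the 41, a wider list of 114 ribosome biogenesis genes with a row was read in the same fit. In 2i against Serum 75 were called lower and 0 higher (0 higher also at an unadjusted p under 0.05), with a median of -0.44, where 18.9% of all tested genes were called lower. In Paused against Serum 27 were called lower and 0 higher (2 higher at an unadjusted p under 0.05), with a median of -0.22, where 10.5% of all tested genes were called lower. Paused against 2i gave 42 higher and 4 lower and a median of 0.19 in FPKM, against 19.8% and 24.6% of all tested genes. On the authors' scale it gave 1 higher and 50 lower and a median of -0.36, where 6.21% of all tested genes were called higher and 54.5% lower. That scale gave 114 lower in Paused against Serum (median -1.15), against 76.9% of all tested genes, and 98 lower in 2i against Serum (median -0.81), against 35.7%. Wdr74, a large subunit factor, had an FPKM of 149, 171 and 161 in Serum, 69.1, 75.1 and 76.3 in 2i, and 121, 119 and 136 in Paused. Wdr74 fell in 2i against Serum (log2 fold change -1.11 ± 0.079, limma adjusted p = 0.00079), as did Naf1, an assembly factor of box H/ACA particles (-1.03 ± 0.25, adjusted p = 0.018), and Nvl, an ATPase that remodels the large subunit (-0.97 ± 0.22, adjusted p = 0.017). In Paused against Serum the largest changes among those called were Exosc2, of the RNA-degrading exosome (log2 fold change -0.71 ± 0.088, limma adjusted p = 0.012), Nip7, of the large subunit (-0.71 ± 0.095, adjusted p = 0.014), and Eif6, which keeps subunits apart (-0.65 ± 0.064, adjusted p = 0.0096). Exosc2 had an FPKM of 77.3, 91.8 and 83.5 in Serum, 53.2, 52.5 and 52.2 in 2i, and 48.1, 49.98 and 55.3 in Paused, with Serum above the other 6 libraries. Nvl, Nol8 and the ATPase Mdn1 rose most in Paused against 2i (log2 fold change 1.11 ± 0.22, limma adjusted p = 0.0092, 0.90 ± 0.11, adjusted p = 0.0017 and 0.87 ± 0.14, adjusted p = 0.0044). Mphosph6, an exosome cofactor, Ttf1, which ends transcription by RNA polymerase I, and Nol12, an RNA-binding factor, were lower in Paused than in 2i (log2 fold change -0.61 ± 0.10, limma adjusted p = 0.0050, -0.45 ± 0.14, adjusted p = 0.037 and -0.37 ± 0.11, adjusted p = 0.041).

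Markers of other cell types moved in part with the members. The summed FPKM of 4 neurectoderm markers was 29.0 to 40.7 in Serum, 7.77 to 8.98 in 2i and 25.4 to 30.1 in Paused, lowest in 2i like the members. It came largely from Nes in Serum. In Paused the highest of the list was Pax6 in E14 and Oct4 GiP (15.2 and 20.2 FPKM) and Sox1 in v6.5 (18.3 FPKM). Nes and Pax6 were lower in 2i than in Serum, whereas mean Sox1 and Otx1 were higher (2.75 against 1.71 FPKM and 0.97 against 0.21 FPKM). Against Serum, Nes fell in Paused (log2 fold change -2.04 ± 0.32, limma adjusted p = 0.015). Pax6 (1.29 ± 0.31, limma adjusted p = 0.036) and Sox1 (1.53 ± 0.29, limma adjusted p = 0.022) rose there. The Paused sum therefore joins opposite changes, and no member was called higher in Paused than in Serum. The sum of 5 fibroblast markers was 4.18 to 11.2 in Serum, 0.909 to 1.41 in 2i and 0.586 to 1.78 in Paused. Of 5 mesoderm markers the sums were 3.32 to 21.3, 4.89 to 7.10 and 1.80 to 3.26, and of 5 trophoblast markers 20.4 to 46.1, 32.9 to 63.0 and 8.14 to 26.2. None of these lists had a marker at 0 in all libraries. The part of such cells in the members' levels was not tested.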

How the data were processed

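RNA-seq of 9 libraries (3 conditions, 3 lines, 1 library each) was read from 1 table of 29801 rows. FPKM values were deposited by the authors. The submitters' processing notes name Cuffnorm, without a version, and mm10. The normalized expression columns, deposited by the authors and treated here as a signal, equal FPKM times 1 constant per library. Rows without a gene name (5644, with 52.8% to 64.0% of a library's summed FPKM) and 113 identical repeats were left out, and 0 columns lacked a sample. The sources used here name no aligner, annotation or strand setting, and read depth is unknown.

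In R 4.3.3, limma 3.58.1 (limma-trend) modelled log2(FPKM + 1) of 12711 rows with an FPKM of at least 1 in 3 or more libraries. All 9 libraries entered 1 fit that blocks on cell line, with Benjamini-Hochberg adjustment over all rows. Alternatives were the authors' scale, other pseudocounts and filters, no block, median centring, a length correction, no variance trend, and leaving out conditions, libraries or lines. The pseudocount of 1 understates the change of low genes. The fit was tested on simulated data. Lines pair the libraries, as the labels name them, and deviations from condition means correlated at -0.0008 to 0.401 within a line and -0.243 to 0.0938 between lines.

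The members and lists were chosen with earlier results of these data known. Every member called in a comparison, and the highest of each role, is given with its values, and from the wider list up to 3 called genes per comparison and direction. Of 124 wider names, 114 had a row. Myc, Mycn and cell type markers were a fixed panel. Promoters came from RefSeq on GRCm38.p6. Lengths, of the longest annotated transcript of a gene, and overlaps came from GENCODE M21, with copies found by blastn 2.17.0.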

Additional observations from a re-analysis of the deposited data

How the results depend on the processing

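Values on the authors' normalized expression differ because each library is multiplied by its own constant. There, members called lower in Paused against Serum numbered 41 (median log2 fold change -1.06) in place of 9, the median of 2i against Serum was -0.91, and Paused against 2i gave 0 higher and 7 lower with a median of -0.17, where 6.21% of all tested genes were called higher and 54.5% lower. The 9 members with a positive FPKM change in Paused against Serum turned negative: Rrn3 -0.74, Gnl2 -0.77, Nop56 -0.79, Nat10 -0.82, Tsr1 -0.82, Nop14 -0.83, Nop58 -0.84, Rrp1b -0.87 and Heatr1 -0.89. In Paused against 2i, members that turned negative included Nop14 -0.028, Noc3l -0.062, Utp20 -0.092, Wdr12 -0.14, Rrp1b -0.15, Tsr1 -0.15, Nop56 -0.15, Rrp12 -0.17, Pes1 -0.20, Gar1 -0.25, Ftsj3 -0.25, Nhp2 -0.26, Imp4 -0.27, Ppan -0.28, Dkc1 -0.41, Noc2l -0.41 and Rrs1 -0.49. With libraries centred on their median gene, the medians were -0.15 in Paused against Serum and 0.46 in Paused against 2i. The single call of the F test over lines became 0 with no filter, on the authors' scale and with no variance trend, and the cause was not tested. All tested genes gave 10, 63 and 46 calls in these settings, in place of 191. Without the cell line as a replicate block, the fit called 7, 35 and 27 members in place of 9 lower, 39 lower and 27 higher. Over all tested genes it gave 976, 2042 and 2098 such calls in place of 1340, 2399 and 2517. Without E14, v6.5 or Oct4 GiP in every condition, the fit called 0, 0 and 0 members lower in Paused and 34, 22 and 12 lower in 2i against Serum, and 24, 16 and 9 higher in Paused against 2i, with fewer samples in each. All tested genes then gave 1, 4 and 1 lower, 2002, 1225 and 554 lower, and 1767, 1640 and 822 higher. Leaving out 1 library or 1 line, the members' counts ran from 0 to 14, from 12 to 38 and from 9 to 32, their medians from -0.15 to -0.11, from -0.62 to -0.52 and from 0.33 to 0.46. The counts over all tested genes ran from 1 to 1854, from 554 to 2689 and from 822 to 2522. The F test gave 0 members without each single library, when all tested genes gave 7 to 71 calls. Of the members' calls in the 3 comparisons, 0 of 9, 28 of 39 and 16 of 27 were kept whichever single library was left out. The other planned settings, pseudocount 0.1, filters, only the 2 conditions compared, no variance trend and the length correction, left the other counts within 1.5 times and each median's sign as it was. Depth is unknown, so no counting interval was given, and 3 lines a condition limit the power of each comparison.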
